A study of Mus musculus with 3 samples.

Results

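Arterial endothelial identity was followed through 9 genes: Sox17, Sox18, Sox7, Efnb2, Gja4, Gja5, Bmx, Gkn3 and Sema3g. The genes were taken by symbol from the 27998 genes of the count tables, and each symbol matched 1 row. The study sorted mouse bone marrow niche cells, that is, stromal and vascular cells from which cells positive for CD45, for CD71 or for a mix of lineage antibodies had been removed, and sequenced them as droplet libraries with unique molecular identifiers (UMIs). The series holds 3 libraries, 1 per group. The aGVHD library (acute graft-versus-host disease) came from irradiated female CB6F1 mice, which carry CD45.2. They were given 5 × 1000000 marrow cells of B6.SJL mice, which carry CD45.1, and in addition 60 × 1000000 spleen cells of female C57BL/6 mice. The BMT library (bone marrow transplantation) came from female CB6F1 recipients that had the same marrow and no spleen cells. Irradiation in both was 2 doses of 4.0 Gy, and the marrow followed 4 hours later. The WT library was made from female CB6F1 mice that had no treatment. The number of mice behind each library and the days between transplantation and collection are stated in none of the sources used here.

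Arteries and arterioles carry blood into the marrow, capillaries distribute it, and wide, leaky sinusoids drain it. Arterial endothelium is set apart from venous endothelium by Notch signalling, by the SoxF transcription factors and by ephrin-B2, and its cells are coupled by the gap junction proteins connexin 37 and connexin 40. Arterial endothelium of the marrow is also known as a source of factors that act on blood stem cells.

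The members fall into roles. Sox17, Sox18 and Sox7 encode the SoxF family of DNA-binding transcription factors. Efnb2 encodes ephrin-B2, the membrane ligand that meets the receptor EphB4 of veins, and Sema3g encodes a secreted class 3 semaphorin of arterial endothelium. Gja4 and Gja5 encode connexin 37 and connexin 40. Bmx encodes a Tec-family tyrosine kinase of arterial endothelium that is also used in myeloid cells. Gkn3 encodes gastrokine 3, a secreted protein used as a marker of arterial endothelium in the mouse brain.

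All 9 are protein-coding genes, and the following spans are those of GENCODE M21 on GRCm38. Sox17 (ENSMUSG00000025902) lies at chr1:4490931-4497354 on the minus strand and Sox18 (ENSMUSG00000046470) at chr2:181669836-181671640 on the minus strand. Sox7 (ENSMUSG00000063060) lies at chr14:63943673-63950732 on the plus strand, the same chromosome as Sema3g (ENSMUSG00000021904) at chr14:31217860-31230352, also on the plus strand. Efnb2 (ENSMUSG00000001300) lies at chr8:8617434-8661242 on the minus strand. Gja4 (ENSMUSG00000050234) lies at chr4:127311421-127314039 on the minus strand. Gja5 (ENSMUSG00000057123) spans chr3:96904693-97077416 on the plus strand. Bmx (ENSMUSG00000031377) lies at chrX:164192842-164258193 and Gkn3 (ENSMUSG00000030048) at chr6:87383256-87388935, both on the minus strand. The span of Gja5 overlaps annotated genes, Gpr89, 9230114J08Rik and 4930573H18Rik among them, on the opposite strand. The sources used here do not say whether the counting used strand, so the assignment of UMIs to Gja5 is uncertain.

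Gja4, Gja5, Bmx and Gkn3 were each found in few endothelial cells, and 3 of them were lower in both library comparisons, so the 250 bases before the start of each are shown, 5′ to 3′ on the strand of the gene. The starts are those of the RefSeq entries, and that of Gja5 lies inside the GENCODE span given for the gene, not at its first base. They are RefSeq sequences on GRCm38.p6, at chr4:127314040-127314289 (minus strand) for Gja4, chr3:97032152-97032401 (plus strand) for Gja5, chrX:164258194-164258443 (minus strand) for Bmx and chr6:87388936-87389185 (minus strand) for Gkn3. Capitals mark matches to the letters searched.
Gja4: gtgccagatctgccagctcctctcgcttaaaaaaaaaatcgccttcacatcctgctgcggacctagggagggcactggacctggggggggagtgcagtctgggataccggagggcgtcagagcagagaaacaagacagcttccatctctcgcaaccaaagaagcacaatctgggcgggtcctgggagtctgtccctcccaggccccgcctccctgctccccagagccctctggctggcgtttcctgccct
Gja5: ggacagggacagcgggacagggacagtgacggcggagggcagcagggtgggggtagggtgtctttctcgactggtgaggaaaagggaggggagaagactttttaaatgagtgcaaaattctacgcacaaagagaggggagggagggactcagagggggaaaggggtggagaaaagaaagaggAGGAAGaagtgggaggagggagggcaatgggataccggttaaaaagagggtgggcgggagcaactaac
Bmx: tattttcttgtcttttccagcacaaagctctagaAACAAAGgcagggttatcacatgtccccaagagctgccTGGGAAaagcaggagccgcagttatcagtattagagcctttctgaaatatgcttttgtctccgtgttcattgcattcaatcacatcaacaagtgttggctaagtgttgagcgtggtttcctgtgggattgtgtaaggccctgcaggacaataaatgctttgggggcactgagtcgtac
Gkn3: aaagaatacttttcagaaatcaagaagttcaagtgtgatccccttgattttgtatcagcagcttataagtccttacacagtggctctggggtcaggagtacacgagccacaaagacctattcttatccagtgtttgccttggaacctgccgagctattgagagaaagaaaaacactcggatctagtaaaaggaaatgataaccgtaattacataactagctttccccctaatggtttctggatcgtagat

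The letters searched on both strands were AACAAT and AACAAAG for SOX factors, TGGGAA for the Notch effector RBPJ and AGGAAG for ETS factors, and no match overlapped another. Promoter entries were found for 6 of the 9 members, namely Efnb2, Gja4, Gja5, Bmx, Gkn3 and Sema3g. Bmx held AACAAAG at 216 to 210 bases and TGGGAA at 178 to 173 bases before its start. Gja5 held AGGAAG at 68 to 63 bases before its start, and Sema3g held it on the opposite strand at 89 to 84 bases. Efnb2, Gja4 and Gkn3 held none of these letters in the window. Over all 27025 promoters of the same length, 14.0% held either SOX form, 21.5% held TGGGAA and 29.2% held AGGAAG, so the matches are descriptions of the sequence.

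Endothelial cells were barcodes with 1000 or more UMIs, 500 or more genes and less than 10% mitochondrial UMIs that also had at least 1 UMI of Cdh5, the endothelial cadherin, and no UMI of Ptprc, the gene of CD45. They numbered 1231 of 5568 called cells in aGVHD, 829 of 3621 in BMT and 561 of 7129 in WT. Of these cells, 1209, 804 and 530 carried at least 3 of 11 further endothelial genes in aGVHD, BMT and WT. In 587, 186 and 235 of them at least 3 markers of another cell type were also found, in 524, 18 and 128 of them those of the erythroid list. Gpihbp1, whose protein carries lipoprotein lipase to the capillary lumen, was found in 92.1% of endothelial cells in aGVHD, 89.0% in BMT and 54.0% in WT, which left 97, 91 and 258 cells without it. Median depth was 3030 UMIs per endothelial cell in aGVHD, 4902 in BMT and 4520 in WT. Library totals were 67439098, 44219063 and 86575425 UMIs, and the libraries shared 8 to 11 called barcodes in each pairing. Without the erythroid list, 160, 179 and 170 cells carried at least 3 markers of another type.

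Levels are given as CPM, a gene's summed UMIs per 1000000 UMIs of the same cells, with exact 95% Poisson intervals. Intervals cover counting error only. With 1 library per group no difference has a replicate check, and no test was run. UMIs were not divided by gene length, so levels of different genes are not ranked. Barcodes with at most 100 UMIs were taken as empty droplets, whose content is free RNA, and each member's level in them is that of free RNA alone. Free RNA was estimated from haemoglobin, with all haemoglobin UMIs of the cells taken as free RNA. Haemoglobin of any erythroid cell in the same droplet would thus raise the estimate. It was 16.8% of endothelial UMIs in aGVHD, 4.1% in BMT and 11.3% in WT. A gene can thus stand at or below its empty-droplet level and still come from the cells. Detection is the share of cells with at least 1 UMI, given unthinned and with each cell thinned to 2000 UMIs, which kept 977 aGVHD, 758 BMT and 477 WT cells.

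The 3 SoxF genes and Efnb2 were found in a large part of the endothelial cells of every library, and stood well above the empty droplets. Sox17 stood at 163 CPM in aGVHD (896 UMIs), 275 CPM in BMT (1531 UMIs) and 128 CPM in WT (443 UMIs), against 19.9, 51.5 and 7.80 CPM in the empty droplets of the same libraries. Its intervals, 152 to 174, 262 to 289.5 and 116.5 to 141 CPM, did not overlap, and BMT was the high library. Sox17 was found in 36.9% of aGVHD, 51.5% of BMT and 37.6% of WT endothelial cells, or 26.5%, 34.2% and 21.2% after thinning.

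Sox18 stood at 145 CPM in aGVHD (798 UMIs), 143.5 CPM in BMT (798 UMIs) and 238 CPM in WT (823 UMIs), against 12.5, 17.7 and 13.2 CPM in empty droplets. WT was the high library and the intervals of aGVHD (135 to 155) and BMT (134 to 154) nearly coincided. Detection of Sox18 was 33.6%, 41.5% and 58.7% in aGVHD, BMT and WT, or 21.7%, 22.3% and 36.9% after thinning. Sox7 varied least of the SoxF genes, with 145 CPM in aGVHD (799 UMIs), 132 CPM in BMT (736 UMIs) and 117 CPM in WT (406 UMIs), against 13.5, 18.8 and 5.67 CPM in empty droplets. Detection of Sox7 after thinning was 24.5%, 21.5% and 23.9%, and unthinned it was 35.5%, 40.9% and 38.7%.

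Efnb2 stood at 109 CPM in aGVHD (601 UMIs), 148.5 CPM in BMT (826 UMIs) and 143 CPM in WT (493 UMIs), against 11.5, 19.7 and 12.5 CPM in empty droplets. The intervals of BMT (139 to 159) and WT (130 to 156) overlapped, and aGVHD (101 to 118) lay below both. Detection of Efnb2 was 30.7%, 41.3% and 41.5% in aGVHD, BMT and WT, or 19.8%, 24.4% and 24.5% after thinning. Sema3g stood at 133 CPM in aGVHD (734 UMIs), 87.0 CPM in BMT (484 UMIs) and 87.1 CPM in WT (301 UMIs), against 9.22, 15.1 and 4.54 CPM in empty droplets. Here aGVHD (124 to 143) was the high library, and BMT (79.5 to 95.2) and WT (77.5 to 97.5) were not distinguishable. Sema3g was found in 30.7% of aGVHD, 19.7% of BMT and 21.2% of WT cells, or 20.8%, 11.2% and 14.7% after thinning.

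Gja4, Gja5, Bmx and Gkn3 were found in far fewer endothelial cells. Gja4 stood at 9.26 CPM in aGVHD (51 UMIs), 25.7 CPM in BMT (143 UMIs) and 67.7 CPM in WT (234 UMIs), against 4.23, 11 and 17.9 CPM in empty droplets. The 3 intervals, 6.89 to 12.2, 21.7 to 30.3 and 59.3 to 76.9 CPM, did not overlap. Detection of Gja4 followed the same order, at 2.44% in aGVHD, 6.76% in BMT and 15.0% in WT, or 1.84%, 3.17% and 10.7% after thinning.

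Gja5 did not follow that order in CPM, with 10.7 CPM in aGVHD (59 UMIs), 12.2 CPM in BMT (68 UMIs) and 11.9 CPM in WT (41 UMIs), against 1.49, 1.16 and 0 CPM in empty droplets. Its 3 intervals, 8.15 to 13.8, 9.50 to 15.5 and 8.51 to 16.1 CPM, overlapped. Detection of Gja5 was 1.79%, 3.50% and 4.46% in aGVHD, BMT and WT, or 0.819%, 1.58% and 3.35% after thinning. The thinned intervals of aGVHD (0.354 to 1.61%) and WT (1.93 to 5.39%) did not overlap. The 5 highest cells carried 62.7%, 44.1% and 34.15% of the gene's UMIs, with up to 14, 10 and 4 UMIs in a cell. Bmx stood at 3.09 CPM in aGVHD (17 UMIs), 13.1 CPM in BMT (73 UMIs) and 27.8 CPM in WT (96 UMIs), against 2.49, 4.92 and 2.13 CPM in empty droplets. The aGVHD interval, 1.80 to 4.94 CPM, held the level of its empty droplets, which is that of free RNA alone. Free RNA was an estimated 16.8% of the UMIs of these cells. Of the 17 UMIs, 10 lay in 3 cells without Gpihbp1, so the aGVHD level of Bmx rests on few cells. Detection of Bmx was 0.812%, 3.98% and 9.63% in aGVHD, BMT and WT, or 0.717%, 1.85% and 5.66% after thinning.

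Gkn3 had 0 UMIs in the 1231 endothelial cells of aGVHD, 144 UMIs (25.9 CPM, 21.8 to 30.5) in BMT and 173 UMIs (50.03 CPM, 42.9 to 58.1) in WT, against 0.498, 3.76 and 3.40 CPM in empty droplets. Taking 3 UMIs or 3 cells as what a count of 0 allows, aGVHD could hold up to 0.545 CPM, and 0 of 1231 cells allows up to 0.244% of cells with a UMI. The gene was concentrated in few cells: 14 of 829 in BMT (1.69%) and 26 of 561 in WT (4.64%). Those 14 BMT cells held a median of 8 and up to 35 UMIs each, and the 5 highest carried 73.6% of the gene's UMIs. The 26 WT cells held a median of 3 and up to 27 UMIs, and the 5 highest carried 57.8%.

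**Figure D1:**
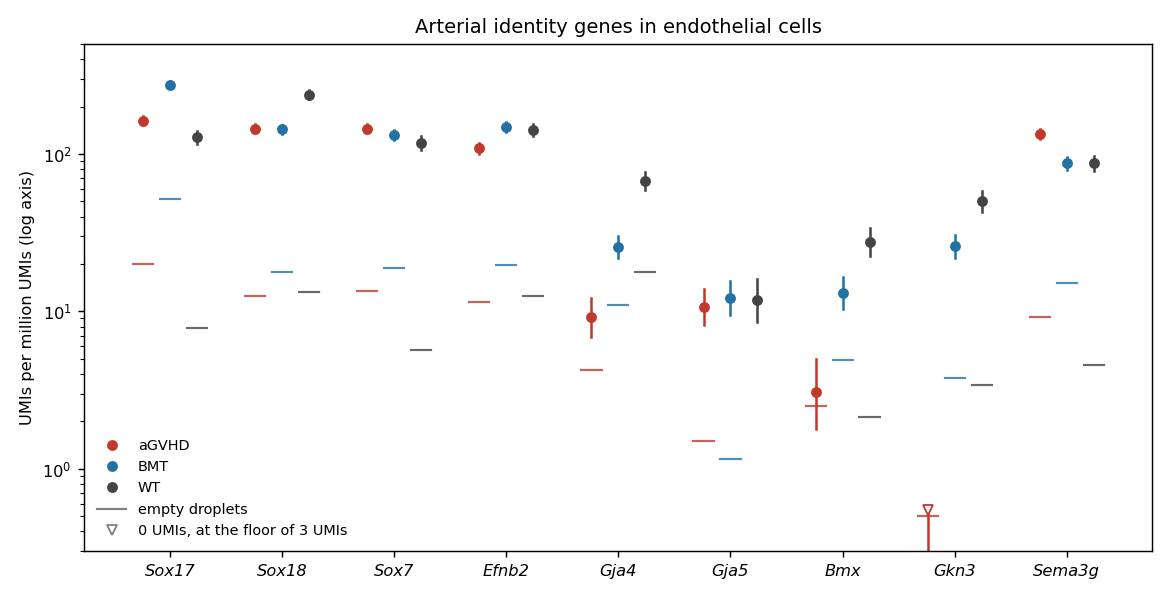
Level of each member in endothelial cells of the aGVHD, BMT and WT libraries, in CPM on a log axis, with bars for exact 95% Poisson intervals and short lines for the empty droplets of the same library; an open triangle stands at 3 UMIs where the count is 0. Gja4 climbs in the order aGVHD, BMT, WT (9.26, 25.7 and 67.7 CPM), Gkn3 has no UMI in aGVHD, and Sox17 is highest in BMT at 275 CPM.

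The background in cells that should lack most of these genes was low. Cells with a Ptprc UMI and no Cdh5 UMI, taken as blood cells left by the sort, numbered 1256 in aGVHD, 1037 in BMT and 464 in WT, with median depths of 10590.5, 5025 and 10135 UMIs. In them Efnb2 stood at 2.68, 2.68 and 2.6 CPM in aGVHD, BMT and WT. Bmx was the exception, at 14.7, 33.7 and 6.30 CPM and in 13.2%, 18.0% and 7.76% of the blood cells, or 4.5%, 8.90% and 1.81% after thinning. The shares of Bmx-positive cells among endothelial cells of aGVHD and BMT, given earlier, lay below these. The other 7 members did not pass 2.6 CPM or 1.29% of blood cells in any library.

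The comparison of BMT with WT sets libraries with and without irradiation and marrow transplantation side by side. With 1 library per group, treatment and library cannot be told apart. Of the 9 members, 1 was higher in BMT endothelial cells, 4 were lower and 4 met neither boundary. A gene was called higher or lower when both sides together held 50 or more UMIs, the ratio reached 1.5 or its inverse, and the exact 95% interval of the ratio excluded 1. Over the 9942 genes measured, 12.4% were called higher and 11.5% lower by the same rule. The median log2 ratio was -0.00 over the members and 0.02 over all genes measured. The higher gene was the transcription factor Sox17, and 3 of the 4 lower ones were narrowly detected genes.

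Sox17 was higher in BMT at 2.15 times the WT level (interval 1.93 to 2.39). Its family member Sox18 went the other way, at 0.603 times WT (0.546 to 0.665), and Sox7 met neither boundary at 1.13 times (0.997 to 1.28). The SoxF genes thus did not move as a block. The connexin gene Gja4 was lower at 0.380 times WT (0.306 to 0.470), the kinase gene Bmx at 0.473 times (0.344 to 0.648) and the gastrokine gene Gkn3 at 0.518 times (0.412 to 0.649). Efnb2 at 1.04 times (0.931 to 1.17), Gja5 at 1.03 times (0.690 to 1.56) and Sema3g at 1.0 times (0.864 to 1.16) met neither boundary.

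These libraries differ in the share of endothelial cells with Gpihbp1, 89.0% in BMT against 54.0% in WT, so the ratios were also taken within each class of cells. Gpihbp1 itself was called higher, at 2.53 times WT (2.4 to 2.67), so the classes need not hold the same kinds of cells in both libraries. Fewer cells of a type and less RNA per cell cannot be told apart in such sums. Among cells with Gpihbp1, 1 member was higher and 3 were lower of 7 measured, beside 11.2% and 11.3% of the 8974 genes measured. Sox17 was higher at 2.11 times WT (1.84 to 2.43), and Sox18 (0.535 times), Gja4 (0.298 times) and Gkn3 (0.191 times) were lower. That Gkn3 ratio rests on 25 UMIs in 2 BMT cells, with up to 17 in a single cell, and 48 UMIs in 6 WT cells. The BMT interval (3.49 to 7.96 CPM) holds the empty-droplet level of 3.76 CPM. Free RNA was an estimated 4.82% of the UMIs of BMT cells with Gpihbp1. Among cells without Gpihbp1, 3 members were higher and 1 was lower of 9 measured, beside 13.0% and 12.8% of the 6524 genes measured. There Efnb2 (1.53 times, 1.2 to 1.95), Gkn3 (1.81 times, 1.4 to 2.35) and Sema3g (1.97 times, 1.57 to 2.46) were higher in BMT, and Sox18 was lower (0.370 times). Gja4 (0.812 times, 0.576 to 1.13) and Bmx (1.04 times, 0.698 to 1.52) met neither boundary in these cells. In the BMT cells without Gpihbp1, summed fibroblast markers stood at 27530 CPM and osteolineage markers at 20810 CPM, against 704 and 127 CPM in BMT cells with Gpihbp1 and 7754 and 3488 CPM in BMT empty droplets. In WT cells without Gpihbp1 they stood at 7720 and 3645 CPM. Their part in the ratios was not tested, beyond an alternative chosen after the data were seen, which leaves out cells with at least 3 markers of a non-endothelial, non-erythroid type. That made Gja5 lower, at 0.496 times WT, and gave 5 lower members.

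The comparison of aGVHD with BMT sets libraries with and without added spleen cells side by side, both from irradiated and transplanted mice. Here too, treatment and library cannot be told apart. Of the 9 members, 1 was higher in aGVHD endothelial cells, 4 were lower and 4 met neither boundary. Over the 10181 genes measured, 8.58% were called higher and 15.2% lower. The median log2 ratio was -0.44 over the members, whatever floor is used for Gkn3, and -0.06 over all genes measured. The lower members were Gkn3, Bmx, Gja4 and Sox17, and the higher one was the semaphorin Sema3g. BMT values enter both library comparisons, so the 2 sets of ratios are not independent.

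Gkn3, with 0 UMIs in aGVHD and 144 in BMT, was at least 47.6-fold lower, counting 3 UMIs in aGVHD. Gja4 stood at 0.360 times BMT (0.256 to 0.499). Bmx was called lower with 17 against 73 UMIs (0.235 times, 0.130 to 0.403), and the interval of its aGVHD level holds that of the aGVHD empty droplets. Gja4 and Gkn3 were thus lower in aGVHD than in BMT and lower in BMT than in WT. Sox17 stood at 0.591 times BMT (0.543 to 0.642), and Sema3g at 1.53 times (1.36 to 1.72). Efnb2 at 0.735 times (0.660 to 0.817), Gja5 at 0.876 times (0.607 to 1.26), Sox18 at 1.01 times (0.914 to 1.12) and Sox7 at 1.10 times (0.990 to 1.21) met neither boundary.

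The share of cells with Gpihbp1 was close in these libraries, 92.1% in aGVHD and 89.0% in BMT. Among cells with Gpihbp1, 1 member was higher and 2 were lower of 7 measured, beside 7.93% and 14.0% of the 9707 genes measured. Sema3g was higher at 2.02 times BMT (1.76 to 2.31), and Sox17 (0.582 times) and Gja4 (0.387 times) were lower. Bmx with 7 UMIs in aGVHD and 30 in BMT, and Gkn3 with 0 and 25, fell under the 50-UMI minimum. Among cells without Gpihbp1, no member was higher and 6 were lower of 8 measured, beside 15.5% and 19.9% of the 4598 genes measured. Sema3g was lower in this class, at 0.521 times BMT (0.380 to 0.705), as were Sox17 (0.420 times), Efnb2 (0.372 times), Gja4 (0.395 times) and Bmx (0.341 times). Gkn3, with 0 against 119 UMIs, was at least 27.1-fold lower, counting 3 UMIs in aGVHD. The call on Sema3g over all cells is close to the boundary: it ended at 1.49 times among cells with at least 3 further endothelial markers and at 1.37 times without cells carrying other types' markers. The calls on all 4 lower members ended when every cell was thinned to 2000 UMIs, which left 5 of the 9 members at the 50-UMI minimum. Sox17, Gja4 and Bmx then stood at 0.669, 0.652 and 0.533 times, and for Gja4 and Bmx the interval included 1. At that depth Gkn3 was found in 0 of 977 aGVHD and 11 of 758 BMT cells. With free RNA subtracted Sox17 also stood at 0.669 times.

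**Figure D2:**
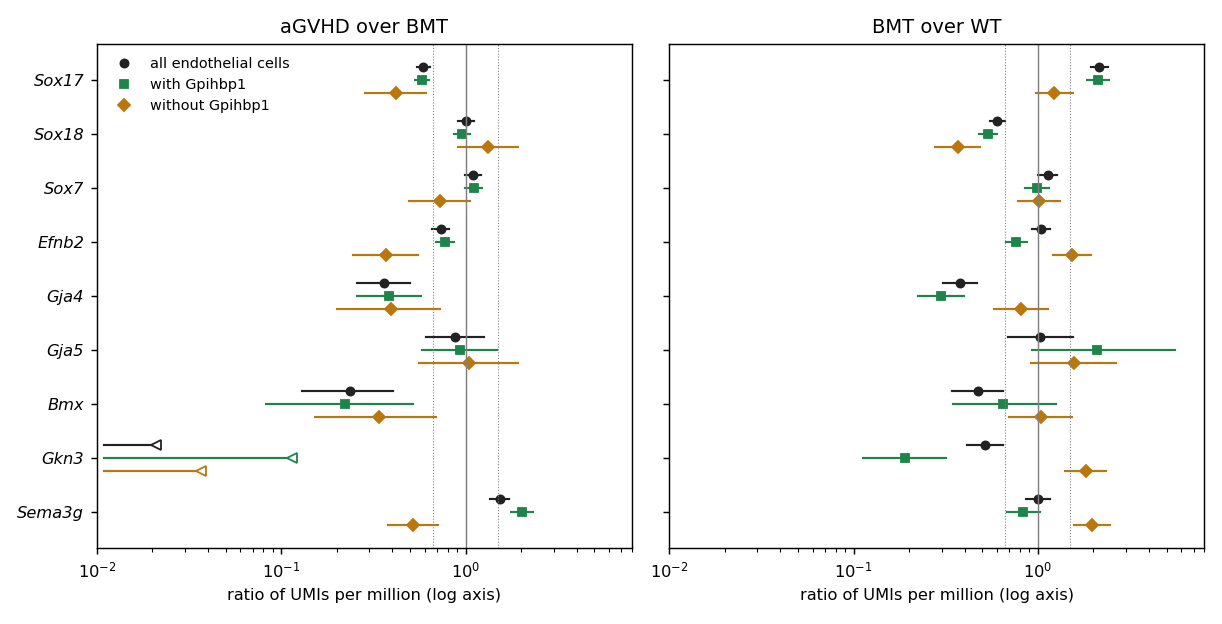
Ratio of each member between libraries on a log axis, aGVHD over BMT on the left and BMT over WT on the right, for all endothelial cells (black), cells with Gpihbp1 (green squares) and cells without it (orange diamonds), with exact 95% intervals; dotted lines mark 1.5 and its inverse, and an open triangle is the ratio at 3 UMIs where the first library has 0. Sema3g of aGVHD over BMT lies at 2.02 with Gpihbp1 and 0.521 without it, and Gkn3 of BMT over WT lies at 0.191 with it and 1.81 without it.

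The comparison of cells with and without Gpihbp1, within each library, asks which endothelial cells hold the arterial genes. Bmx and Gkn3 were lower in cells with Gpihbp1 in BMT and WT, and Gja5 was lower in them in aGVHD and BMT. In WT Gja5 held 7 UMIs in cells with Gpihbp1 and 34 in cells without it (0.213 times, 0.0797 to 0.488), under the 50-UMI minimum. Sox18 was higher in cells with Gpihbp1 in all 3 libraries, and that call ended in each of them among cells with at least 3 further endothelial markers (1.10, 1.45 and 1.34 times). At 2000 UMIs per cell the Sox18 ratio in aGVHD was 0.996. Sema3g was lower in cells with Gpihbp1 in BMT and met neither boundary in aGVHD and WT.

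In aGVHD, 4 of 7 members measured were higher and 2 lower in cells with Gpihbp1, beside 14.4% and 11.1% of the 8389 genes measured. Sox17 (3.0 times, 2.16 to 4.28), Sox18 (1.71 times, 1.30 to 2.29), Sox7 (2.21 times, 1.63 to 3.07) and Efnb2 (2.29 times, 1.61 to 3.39) were higher. Gja4 (0.341 times, 0.180 to 0.683) and Gja5 (0.252 times, 0.143 to 0.455) were lower, and Sema3g met neither boundary (1.48 times, 1.13 to 1.96). The cells without Gpihbp1 held 30.2% free RNA as estimated from haemoglobin, against 15.1% in the cells with it. At least 3 erythroid markers were found in 52 of the 97 cells without Gpihbp1 and in 472 of the 1134 with it. Of the 97 cells, 78 carried at least 3 further endothelial markers. Among cells that did carry them, Sox7 met neither boundary (1.43 times). Without cells carrying markers of any other type, Sox17 (1.59 times, 0.963 to 2.80), Efnb2 (1.82 times, 0.977 to 3.85) and Sox7 (1.06 times) had intervals that included 1.

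In BMT, 2 of 9 members were higher and 5 lower in cells with Gpihbp1, beside 15.9% and 10.6% of the 8596 genes measured. Sox17 (2.16 times, 1.80 to 2.61) and Sox18 (2.36 times, 1.82 to 3.11) were higher. Gkn3 stood at 5.39 CPM with Gpihbp1 and 129 CPM without it, a ratio of 0.0418 (0.0260 to 0.0647). Bmx stood at 6.47 and 46.6 CPM (0.139 times, 0.0841 to 0.226), Gja5 at 8.62 and 30.4 CPM (0.284 times, 0.171 to 0.478) and Gja4 at 19.6 and 56.4 CPM (0.348 times, 0.245 to 0.499). Sema3g was lower as well, at 68.6 CPM with Gpihbp1 and 179.9 CPM without it (0.381 times, 0.315 to 0.463). Summed over 10 genes, mural markers stood at 536 CPM in BMT cells with Gpihbp1 and 1650.0 CPM in those without it, against 686 CPM in BMT empty droplets. Leaving out cells with markers of other types ended the calls on Sox17 (1.08 times) and Sox18 (1.25 times) and made Efnb2 lower (0.580 times), while Gkn3, Bmx, Gja4, Gja5 and Sema3g stayed lower.

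In WT, 2 of 8 members measured were higher and 2 lower in cells with Gpihbp1, beside 11.2% and 7.21% of the 7406 genes measured. Sox18 (1.64 times, 1.42 to 1.89) and Efnb2 (2.22 times, 1.83 to 2.69) were higher. Bmx had 17 UMIs in cells with Gpihbp1 and 79 without it (0.223 times, 0.124 to 0.380), and Gkn3 stood at 28.3 and 71.1 CPM (0.397 times, 0.279 to 0.558). Gja4 was at nearly the same level in both classes, 65.9 and 69.4 CPM (0.950 times), where mural markers summed to 974.5 and 1378 CPM. Without cells carrying markers of other types Gja4 was lower in cells with Gpihbp1, at 0.538 times, and Sox18 met neither boundary at 1.42 times. Over the members the median log2 ratio was 0.76 in aGVHD, -1.39 in BMT and 0.13 in WT, against 0.05, 0.12 and 0.08 over all genes measured.

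**Figure D3:**
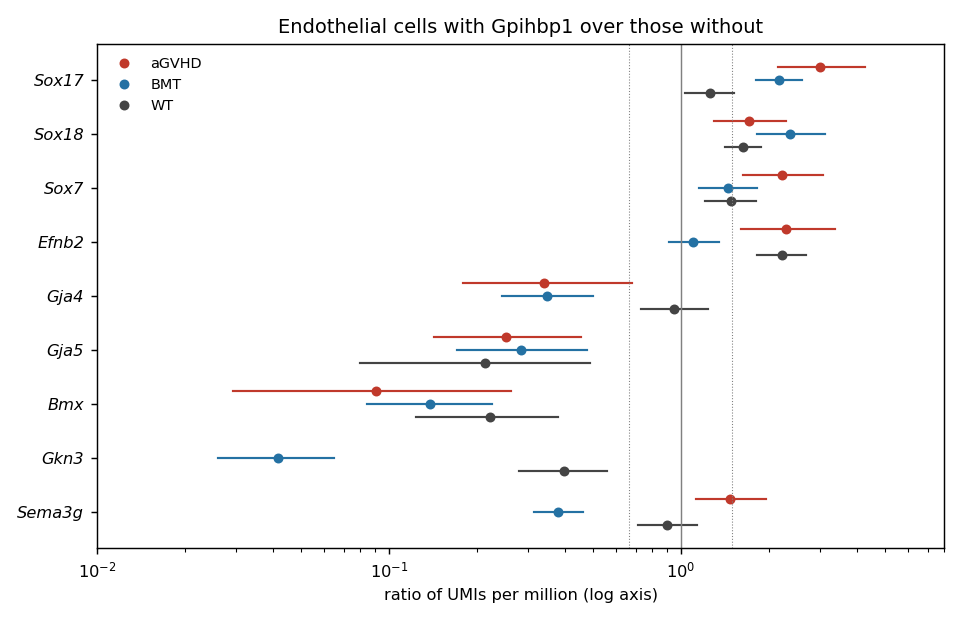
Ratio of each member in endothelial cells with Gpihbp1 over cells without it, on a log axis, for aGVHD, BMT and WT, with exact 95% intervals and dotted lines at 1.5 and its inverse; Gkn3 has no point in aGVHD, where both classes hold 0 UMIs. The BMT point of Gkn3 lies furthest to the left, at 0.0418, and Sox18 lies at 1.71, 2.36 and 1.64 in aGVHD, BMT and WT.

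The 4 narrowly detected members, Gja4, Gja5, Bmx and Gkn3, tended to be found in the same cells. They were grouped after their values were seen, so what follows describes these libraries. Each gene was looked for in cells that held at least 2 of the other 3. Gkn3 was found in 0 of 14 such cells in aGVHD, 10 of 33 in BMT (30.3%) and 14 of 38 in WT (36.8%). In cells with none of the other 3 it was found in 0 of 1186, 0 of 750 and 6 of 447 cells. Gja5 was found in 3 of 8, 10 of 27 and 16 of 39 such cells, against 1.08%, 1.19% and 0.899% of the cells with none of the other 3. Bmx was found in 3 of 9, 9 of 22 and 16 of 29 cells, against 0.168%, 1.19% and 4.96%. For Gja4 it was 3 of 3, 11 of 16 and 21 of 24 cells, against 1.33%, 3.1% and 8.88%. At 2000 UMIs per cell, Gja4 was found in 2 of 8 aGVHD, 6 of 12 BMT and 13 of 16 WT cells with Gja5, against 1.65%, 2.41% and 8.24% of the cells without it. Bmx was found in 0 of 8, 2 of 12 and 6 of 16 cells with Gja5 at that depth, so in aGVHD the overlap rests on few cells.

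Cells with at least 2 of the 4 genes were rarest in aGVHD, at 14 of 1231 endothelial cells (1.14%, Clopper-Pearson 95% interval 0.623 to 1.9%). They were 37 of 829 in BMT (4.46%, 3.16 to 6.10%) and 44 of 561 in WT (7.84%, 5.76 to 10.4%). After thinning to 2000 UMIs, which puts all cells at the same depth, they were 4 of 977 (0.409%, 0.112 to 1.05%), 17 of 758 (2.24%, 1.31 to 3.57%) and 27 of 477 (5.66%, 3.76 to 8.13%). The 3 thinned intervals did not overlap. Gja4, Bmx and Gkn3 had already been called lower in both library comparisons, and Gkn3 had 0 UMIs in aGVHD. This order of the libraries is thus not independent of those calls. Unthinned, the median depth of these cells was 8455.5 UMIs in aGVHD, 11128 in BMT and 4596.5 in WT, against 3014, 4775.5 and 4520 in all other endothelial cells. Among cells without Gpihbp1 the order was another: 6 of 97 in aGVHD (6.19%), 20 of 91 in BMT (22%) and 30 of 258 in WT (11.6%). Among cells with Gpihbp1 it was 0.706%, 2.30% and 4.62%. Leaving out endothelial cells with at least 3 markers of another type gave 0.654%, 4.00% and 9.21% where the erythroid list was not used, and 0.311% (2 of 644 cells), 4.04% and 9.20% where it was. These cells held 100% of the Gkn3 UMIs of BMT endothelial cells and 86.7% of those of WT.

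The cells with at least 2 of the 4 genes were rich in other arterial genes that did not choose them. Sema3g stood at 568 CPM in them in aGVHD, 493 CPM in BMT and 604 CPM in WT, against 123, 54.2 and 48.8 CPM in all other endothelial cells. That is 4.63 times (3.59 to 5.89), 9.09 times (7.55 to 10.9) and 12.4 times (9.80 to 15.6), and Sema3g was found in 92.9%, 89.2% and 86.4% of them. Efnb2 was 2.40, 2.72 and 3.01 times the level of the other cells. Sox17 was 1.04 times in aGVHD (0.648 to 1.58), 1.52 times in BMT and 2.93 times in WT, and Sox18 was 1.45, 2.23 and 1.76 times. Sox7 was 1.01, 0.787 and 1.16 times, so this SoxF gene did not mark them.

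By the call rule, 2 of the 5 other members were higher in these cells in aGVHD (Sema3g and Efnb2), beside 5.28% of the 8389 genes measured, and none was lower, beside 5.26%. In BMT and in WT 4 of the 5 were higher (also Sox17 and Sox18), beside 8.18% of 8596 and 8.47% of 7406 genes, and none was lower, beside 8.27% and 7.16%. Of the 29 measured genes of the wider arterial list, 13 were higher and 1 lower (Cxcr4) in aGVHD, 22 higher and 0 lower in BMT, and 25 higher and 0 lower in WT. Fbln5, which encodes an elastic fibre protein, was 20.5, 5.91 and 5.48 times the level of the other endothelial cells in aGVHD, BMT and WT. The Notch ligand gene Jag1 was 5.46, 4.87 and 5.45 times, and Stmn2, a microtubule regulator known from neurons, was 5.05, 4.32 and 6.76 times. Others did not follow in every library: the Notch ligand gene Dll4 was 1.04, 1.82 and 3.19 times and met neither boundary in aGVHD, and Nrp1 was 0.724, 0.721 and 1.51 times and was called in WT alone. Of the capillary list, 8 of 9 measured genes were lower in aGVHD, 8 of 9 in BMT and 7 of 8 in WT, and none was higher. Rgcc, for example, was 0.149, 0.193 and 0.412 times. Of the 9 venous and sinusoidal genes, 1 was lower in aGVHD, 4 in BMT and 7 in WT, and in BMT the von Willebrand factor gene Vwf was higher (2.29 times). In aGVHD 12 of the 14 cells also carried at least 3 markers of another type, against 11 of 37 in BMT and 14 of 44 in WT, erythroid markers included, and 2, 4 and 3 of them carried at least 3 mural markers.

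Members that differed between libraries were also compared with these cells set apart. Outside them, Sox17 of BMT stood at 2.35 times WT (2.09 to 2.64), and within them at 1.21 times (0.923 to 1.61). Outside them, Sema3g of aGVHD stood at 2.26 times BMT (1.96 to 2.61), and within them at 1.15 times (0.871 to 1.51). The higher Sox17 in BMT and the higher Sema3g in aGVHD were thus seen in endothelial cells with at most 1 of the 4 narrow genes. Sox17 of aGVHD was lower than BMT both within them (0.421 times, 0.257 to 0.658) and outside them (0.613 times).

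**Figure D4:**
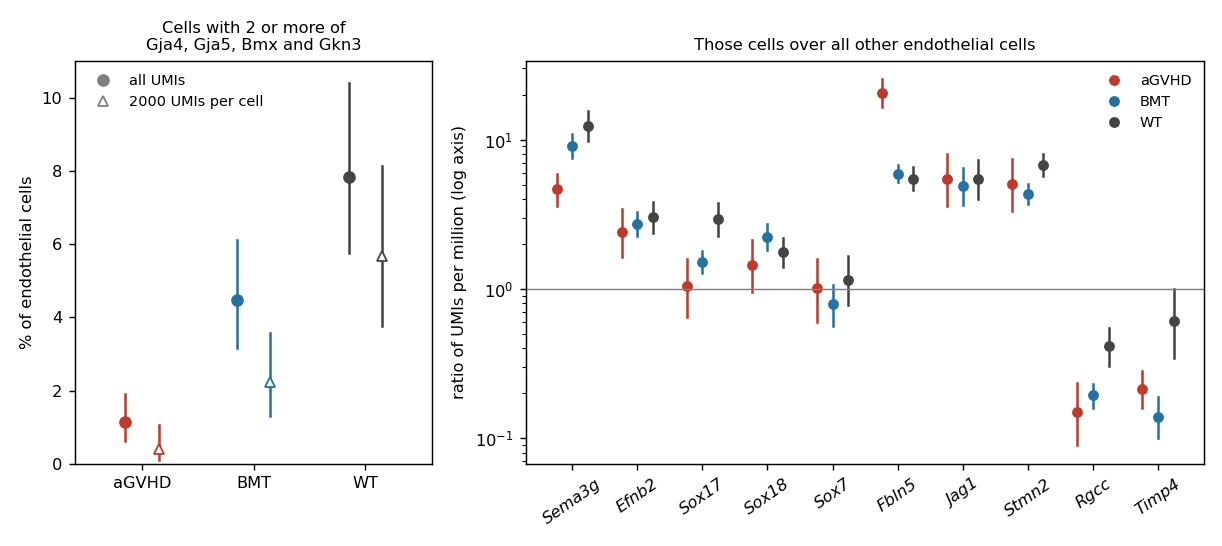
Left, percent of endothelial cells with at least 2 of Gja4, Gja5, Bmx and Gkn3 in aGVHD, BMT and WT, from all UMIs (circles) and at 2000 UMIs per cell (open triangles), with Clopper-Pearson 95% intervals; right, ratio of other genes in those cells over all other endothelial cells, on a log axis with exact 95% intervals. The share runs 1.14%, 4.46% and 7.84%. Sema3g, Fbln5, Jag1 and Stmn2 lie above 1 and Rgcc and Timp4 below 1 in all 3 libraries, and the WT interval of Timp4 reaches 1.004.

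Set against called cells without a Cdh5 UMI, the SoxF genes and Sema3g stood far higher in the endothelial cells. Sox17 was 91.8 times the level of those cells in aGVHD, 365 times in BMT and 204 times in WT. Sox18 (133, 158 and 241 times), Sox7 (128, 222 and 151 times) and Sema3g (90.4, 146 and 135 times) had ratios of similar size. Gkn3 was 165 times in BMT and 90.3 times in WT. Efnb2 (23.2, 11.9 and 9.53 times), Gja4 (2.69, 3.50 and 5.05 times) and Bmx (0.497, 0.926 and 11.9 times) stood apart less. Gja5 was 11.1, 43.2 and 72.0 times.

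Gja4 was also found in mural cells, the pericytes and smooth muscle cells of the vessel wall, which were named from at least 3 detected markers. It stood at 203 CPM in 98 mural cells of aGVHD, 187 CPM in 113 of BMT and 210 CPM in 590 of WT, and was found in 45.9%, 46.9% and 54.9% of them. Mural Gja4 thus was at a similar level in the 3 libraries. Mural markers summed over the endothelial cells stood at 324, 721 and 1180 CPM, the same order as Gja4 in those cells (9.26, 25.7 and 67.7 CPM). The empty droplets stood at 316, 686 and 1186 CPM, and free RNA was an estimated 16.8%, 4.1% and 11.3% of endothelial UMIs. The part of mural RNA in endothelial Gja4 was not tested, beyond the alternatives that leave out cells with markers of other types. Bmx was found in granulocytic cells, at 44.9 CPM in 462 cells of aGVHD, 60.8 CPM in 396 of BMT and 20.2 CPM in 92 of WT. It was also present in Lepr stroma, the reticular stromal cells, at 6.55, 19.0 and 15.1 CPM. Efnb2 stood at 39.1, 45.4 and 47.5 CPM in mural cells and at 30.3, 31.4 and 30.4 CPM in chondrocytes. Gja5 was found in 18 of 361 Lepr stroma cells of aGVHD (5.68 CPM), and stood in Lepr stroma at 0.483 CPM in BMT and at 0 CPM in WT.

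**Figure D5:**
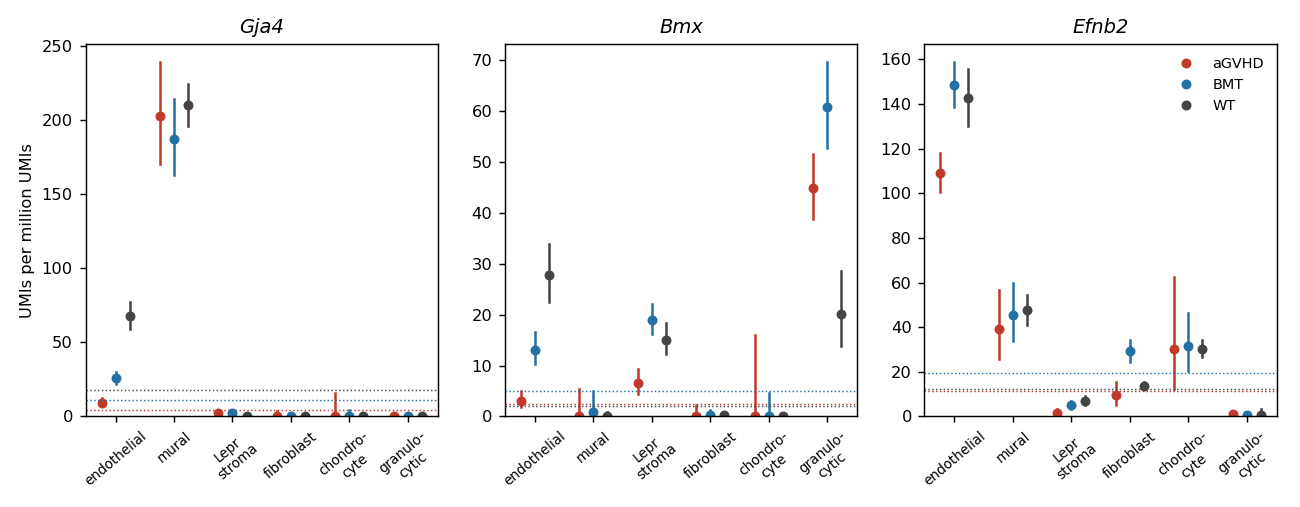
Level of Gja4, Bmx and Efnb2 in CPM (linear axis) in endothelial cells and in 5 marker-named classes without a Cdh5 UMI, for aGVHD, BMT and WT, with Poisson 95% intervals and dotted lines at the empty-droplet level of each library. Gja4 is near 200 CPM in mural cells of every library (203, 187 and 210), and Bmx reaches 60.8 CPM in granulocytic cells of BMT.

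The other genes of the arterial pathway came from a list of 31, of which 29 were measured. For BMT over WT, 7 of them were higher and 6 lower, 16 met neither boundary, and the median log2 ratio was 0.14, beside 12.4% higher and 11.5% lower of all genes measured. Ly6a, the gene of the marrow arterial marker Sca-1, was higher at 3.22 times and 8430408G22Rik at 2.45 times. The VEGF co-receptor gene Nrp1 was higher at 2.20 times and Ly6c1 at 2.14 times. Only in WT were these genes called higher in cells with at least 2 of the 4 narrow genes. Among the other endothelial cells, Ly6a was found in 96.4% in aGVHD, 93.4% in BMT and 64.2% in WT. Ly6c1 was found in 96.5%, 90.9% and 77.4% of them. The elastin gene Eln was 3.47-fold and Ltbp4, of the elastic fibre, 2.15-fold lower. The matrix gene Mgp (6.04-fold lower) and the chaperone gene Clu (4.56-fold lower) are among the 6 lower but stood below their empty droplets in both libraries. The part of free RNA in them, and in Cxcl12 among the 7 higher, was not tested. Mgp was found in 56.8% of BMT cells with at least 2 of the 4 narrow genes and 12.5% of other BMT endothelial cells. In WT these shares were 63.6% and 47.0%. Cxcr4, also among the 6 lower, stood below its empty droplets in BMT. For aGVHD over BMT, 4 of them were higher and 12 lower, 13 met neither boundary, and the median log2 ratio was -0.01, beside 8.58% higher and 15.2% lower of all genes. Dll4, the arterial Notch ligand, was higher at 1.92 times, Ly6c1 at 2.05 times and Ly6a at 1.91 times, and Ltbp4 (6.87-fold), Stmn2 (3.55-fold) and the taurine transporter gene Slc6a6 (3.12-fold) were lower. Dll4 was thus higher in aGVHD, where Gja4 and Gkn3 were lower. The chemokine receptor gene Cxcr4 (2.83 times higher) and its ligand gene Cxcl12 (2.99-fold lower) stood below their empty droplets.

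Against the same shares of all genes, 2 further lists were counted. The list of 9 capillary genes gave 7 higher and none lower in BMT over WT, and 2 higher and 2 lower in aGVHD over BMT. The list of 9 venous and sinusoidal genes gave none higher and 4 lower in BMT over WT, and 1 higher and 3 lower in aGVHD over BMT.

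Genes whose UMIs ran most alike with the number of members found in a cell were ranked over the thinned endothelial cells, 977 in aGVHD, 758 in BMT and 477 in WT. The 10 highest of 5855 genes, by the lowest Pearson r of the 3 libraries, were Ly6c1, Fbln5, Podxl, Klf4, Timp3, Slc6a6, Ier2, Epas1, Atp13a3 and Slc9a3r2. Their lowest r lay between 0.220 for Ly6c1 and 0.148 for Slc9a3r2. These are weak values over cells that share a library. A member was found in 79.5% of aGVHD, 84.3% of BMT and 85.6% of WT endothelial cells, or 68.8%, 69.1% and 68.8% at equal depth. At least 5 members at once were found in 0.409%, 1.06% and 5.45% of the thinned cells. The share of cells with any member was thus level across the libraries, and the share with many members was highest in WT.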

How the data were processed

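The deposited files hold raw UMI counts per gene and barcode, whole numbers that the authors left unnormalised. Per the file headers they were written by Cell Ranger 3.1.0, and Cell Ranger, Seurat and the build mm10 are named per the submitters' processing notes. Each table lists 27998 genes and 6794880 barcodes, so cells were called here. The mitochondrial limit removed 548 aGVHD, 253 BMT and 544 WT barcodes. Empty droplets numbered 1297508, 1017843 and 2329456. Doublets were kept; Scrublet (highest scores, 0.8% per 1000 cells) marked 69, 23 and 44 endothelial cells, and its own threshold 78, 3 and 187 called cells in all. Marker classes hold cells with at least 3 markers of a list and more than of any other.

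UMIs were summed over cells. Ratios carry the exact 95% interval conditional on both sums, and levels the exact Poisson interval. A value of 0 was set to a floor of 3 UMIs for folds. Calls needed at least 50 UMIs over both sides, a ratio of at least 1.5 or its inverse and an interval excluding 1. The call rule was tested on simulated Poisson counts. Thinning was checked on WT endothelial cells, for the depth reached only. With 1 library per group no test exists. Members and lists were chosen with earlier results of these data known. All members are named; of the wider arterial list, the up to 4 called genes per direction whose interval bound lies furthest from 1; and by likeness the 10 genes with the highest lowest-of-3 correlation, among genes in at least 3% of cells. Alternatives covered scaling (TMM, edgeR 4.0.16), gates, doublets, cell filters, free RNA, thinning, count minimum and fold boundary. Python 3.11.15, numpy 2.4.6, pandas 2.3.3, scipy 1.17.1, scanpy 1.11.5 and matplotlib 3.10.9 were used.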

Additional observations from a re-analysis of the deposited data

Results flagged for a closer look

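In 4 cases a member went opposite ways in different classes of endothelial cells or in different libraries. None of these differences was tested, since each side is 1 library, and every interval covers counting error only. Efnb2 of BMT over WT stood at 0.763 (0.669 to 0.872) in cells with Gpihbp1 and at 1.53 (1.2 to 1.95) in cells without it. Gkn3 of BMT over WT stood at 0.191 (0.113 to 0.316) with Gpihbp1 and at 1.81 (1.4 to 2.35) without it. With Gpihbp1 these are 25 UMIs in 2 BMT cells and 48 UMIs in 6 WT cells, and without it 119 UMIs in 12 BMT cells and 125 UMIs in 20 WT cells. Sema3g of aGVHD over BMT stood at 2.02 (1.76 to 2.31) with Gpihbp1 and at 0.521 (0.380 to 0.705) without it. Within a library, Sema3g of cells with Gpihbp1 over cells without it stood at 1.48 (1.13 to 1.96) in aGVHD and at 0.381 (0.315 to 0.463) in BMT.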

How the results depend on the processing

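Of the members' ratios between libraries, 162 stayed within the interval of the reported value under the alternatives, 51 moved and 3 turned. Of those between cells with and without Gpihbp1, 207 stayed, 77 moved and 1 turned. Turned ratios of BMT over WT within cells without Gpihbp1 were Bmx (1.04) and Gkn3 (1.81). The others were Sema3g of aGVHD over BMT in those cells (0.521) and Sox18 with over without Gpihbp1 in thinned aGVHD cells (0.996). The 4 lower members of BMT over WT became 2 at a 2-fold boundary and 1 within cells without Gpihbp1, where the 1 higher member became 3. The 1 higher member of aGVHD over BMT became 0 with Cdh5 of at least 2 UMIs, with at least 3 further endothelial markers, at 2000 UMIs or more, at a 2-fold boundary, within cells without Gpihbp1, and without cells carrying 3 markers of another list, erythroid or not. The 4 lower members became 0 after thinning and 2 within cells with Gpihbp1. With over without Gpihbp1 in aGVHD, the 4 higher became 2 with 2 Cdh5 UMIs or 3 endothelial markers and 0 without other-marker cells, erythroid included. The 2 lower became 1 with 2 Cdh5 UMIs, without Scrublet doublets, with free RNA subtracted or with 2 Gpihbp1 UMIs, and 0 after thinning or without other-marker cells. In BMT, the 2 higher became 1 with 2 Cdh5 UMIs and 0 with 3 endothelial markers, after thinning or without other-marker cells, and the 5 lower became 2 after thinning. In WT, the 2 higher became 1 with 2 Cdh5 UMIs, 3 endothelial markers or a 2-fold boundary, and the 2 lower became 1 after thinning. Some counts rose: the lower members of BMT over WT to 5 after thinning or without other-marker cells, with erythroid ones counted or not, and in WT the higher to 3 (Scrublet, free RNA subtracted, 2 Gpihbp1 UMIs) and the lower to 3 (20 UMIs, or without other-marker cells but erythroid). Over all genes, the 1229 higher and 1143 lower of BMT over WT fell as low as 518 and 560 (2-fold boundary), and the 874 and 1545 of aGVHD over BMT as low as 423 and 713 (2-fold boundary). With over without Gpihbp1, the 1205 and 935 of aGVHD fell as low as 289 and 297 (without other-marker cells), the 1370 and 907 of BMT as low as 467 and 310 (thinned), and the 833 and 534 of WT as low as 323 (2-fold boundary) and 217 (thinned). Scaling by TMM added Sema3g to the higher members in aGVHD (1.56). Thinning and filtering leave fewer UMIs and so fewer members measured; for the other changes the cause was not tested. Leaving out other-marker cells but not for erythroid genes was chosen after seeing the data. No paired analysis was possible because each group has 1 library and the labels give no replicate numbers, and no replicate could be left out.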

Other observations

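Sox17 reached 13 UMIs in a single endothelial cell of aGVHD, 39 in BMT and 13 in WT. Of the 12 BMT cells with Gja5 at 2000 UMIs per cell, 6 held Gja4 and 4 held Gkn3, against 2.41% and 0.938% of BMT cells without Gja5. Of the 18 aGVHD cells with Gja4 at that depth, 66.7% held Sema3g, against 19.9% of aGVHD cells without Gja4. Edn1, which encodes endothelin 1, stood at 3.33 times the level of other endothelial cells in aGVHD cells with at least 2 of Gja4, Gja5, Bmx and Gkn3, 5.53 times in BMT and 3.69 times in WT. Hey1, a Notch target gene, stood at 2.80 times in BMT and 6.04 times in WT in the same cells, and its 2 UMIs in aGVHD left the ratio undetermined (0.671, interval 0.0804 to 2.48).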
